A study of Mus musculus with 20 samples.

Results

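DNA replication and nucleotide supply genes are the genes whose products load and start the replicative helicase, copy the DNA, join its fragments, make deoxynucleotides and restore chromatin behind the fork. A list of 34 such genes was followed across mouse bladders and metastases measured on 20 whole-transcript arrays. A gene was taken where the platform annotation gave an array row that single symbol, and of several rows the one with the highest mean over all arrays was used. This gave 33 of the 34 genes, among 30142 genes in all. The row of Mcm7 also carries the microRNA genes Mir25 and Mir93, which lie within it, so Mcm7 was not used.

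All mice were FVB/N mice called CKO, with floxed alleles, that of Rb1 among them, and without p107 (Rbl1) in every group, controls included. The study compared normal bladders with tumours started by Cre, with bladders after Cdk4/6 inhibition plus a platinum drug, and with metastases. Normal bladder (5 arrays, numbered 1, 2, 4, 5 and 6) came from CKO mice, with no virus named in the labels. Tumour bladder (7 arrays) came from bladders given an adenovirus that codes for Cre recombinase, which deletes floxed alleles in the cells it reaches. Treated bladder (3 arrays) came from bladders inoculated in the same way, in mice that then had the Cdk4/6 inhibitor palbociclib into the peritoneum at 150 mg/kg every day for 28 days and CDDP at 6 mg/kg once a week. Metastasis (4 arrays) and palbo metastasis (1 array, a lone sample titled as such) were metastatic tumours, whose organ the labels do not state. The age and sex of the mice and whether each array is a separate animal are not stated, so the spread between arrays of a group may be technical in part. The RNA kit was one made for fixed, embedded tissue.

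Before S phase, the origin recognition complex, Cdc6 and Cdt1 load the Mcm helicase onto DNA. Cdc45 and the GINS complex then turn the loaded helicase on, and the polymerases follow with the sliding clamp Pcna. Many of these genes are targets of E2F factors, which the Rb family (Rb1, p107 and p130) holds in check. Cdk4 and Cdk6 phosphorylate Rb1 and so release E2F, and palbociclib blocks these kinases. Adult urothelium divides rarely, and bladder tissue also holds smooth muscle and fibroblasts.

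The promoters are shown because E2F factors bind DNA through short sequences of the form held in capitals here. The RefSeq table used (GRCm38.p6) holds a window from 250 bases before to 50 bases after the start for 27 of the 33 genes. It was searched on both strands for TTTCCCGC, TTTCGCGC, TTTGCCGC and TTTGGCGC, of which the pairs that read the same core from both strands can overlap. At least 1 match lay in 12 of the 27 windows (44.4%), against 704 of 27025 genes of the table (2.60%). The letters CCAAT, on either strand, were in 17 of the 27 windows (63.0%) and in 41.1% of all. The median share of G and C was 60% in the members' windows and 53.3% in all. A match is a description of letters and not a site in use. The start is the one on which the window is built. Before that start, the matches of Cdc6, Orc1, Pola1 and Uhrf1 lie within the annotated gene, which begins further upstream. Stretches with up to 30 bases on each side of the matches are given 5′ to 3′ on the gene's own strand, with matches in capitals, for 5 of the genes whose levels are described next. They lie at chr11:98907983-98908050 (plus strand) for Cdc6, chr8:75109326-75109397 (plus strand) for Mcm5, chr1:128359715-128359845 (minus strand) for Mcm6, chrX:93632256-93632323 (minus strand) for Pola1 and chr5:151651209-151651248 (minus strand) for Rfc3.
Cdc6: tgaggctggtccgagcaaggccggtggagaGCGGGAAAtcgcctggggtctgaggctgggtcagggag
Mcm5: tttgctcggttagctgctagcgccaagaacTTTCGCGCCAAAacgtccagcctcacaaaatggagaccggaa
Mcm6: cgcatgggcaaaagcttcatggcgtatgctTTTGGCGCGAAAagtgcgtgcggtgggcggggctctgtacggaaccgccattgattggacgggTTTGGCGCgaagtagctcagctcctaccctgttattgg
Pola1: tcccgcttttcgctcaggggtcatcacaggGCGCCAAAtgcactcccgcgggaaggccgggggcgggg
Rfc3: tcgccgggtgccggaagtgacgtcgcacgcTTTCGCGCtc
Mcm6 held 3 matches before its start and Mcm5 held 2, in each case with an overlapping pair read from opposite strands. Orc1, Gins3 and Uhrf1 also had a match before the start, and those of Mcm3, Cdt1, Lig1 and Pold1 lay after it. Rfc3 had a second match, which begins at the first base after the start and so is not in the stretch shown.

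Levels are the deposited log2 values, in which a higher number means a brighter probe set, and they are compared only within a gene. Of the 33 genes, 30 had a mean over the 20 arrays above 5.10, the 40th percentile of all rows. The exceptions, which sit among dim probe sets, were Cdt1 (4.92), Rrm2 (5.08) and Orc1 (5.09).

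A set of 8 arrays stood apart from the rest across groups: metastases 3 and 4, tumour bladders 3 to 5 and normal bladders 4 to 6. On these, dim rows spread more (SD 0.336 to 0.367), and their deviations over bright rows correlated with those of no other array above 0.210. On the other 12 arrays these values were 0.228 to 0.329 and 0.260 to 0.809. All 8 arrays gave nearly one level for the markers of bladder tissue, metastases included, with a smooth muscle mean between 6.67 and 6.83 and a urothelial mean between 6.49 and 6.66. Over the other 12 arrays the same means ran from 4.93 to 9.74 and from 4.80 to 9.29. From normal bladder 1 to metastasis 1 the urothelial genes Upk1b and Upk3a went from 13.15 to 8.43 and from 9.55 to 4.75. The muscle genes Acta2 and Myh11 went from 11.01 to 6.18 and from 10.35 to 5.61. The differences of the replication genes are therefore given over all 20 arrays, with the main values over the 12 beside them.

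The replication genes moved together between arrays, and 3 arrays of 3 different groups were high: tumour bladder 6, treated bladder 3 and metastasis 1. The mean of the 33 genes was 5.40 and 5.41 on normal bladders 1 and 2, and 5.81, 5.79 and 5.86 on normal bladders 4, 5 and 6. Over the 7 tumour bladders it ran from 5.46 (tumour bladder 7) through a median of 5.83 to 6.42 (tumour bladder 6). The treated bladders stood at 5.53, 5.51 and 6.37. Among metastases it was 6.49, 5.84, 5.84 and 5.81, and the palbo metastasis gave 5.87. Thus the tumour, treated and metastasis groups each held 1 array above 6.3, and all 4 groups of several arrays overlapped. Group means were 5.65 ± 0.23 (SD, n = 5) for normal, 5.90 ± 0.29 (n = 7) for tumour, 5.80 ± 0.50 (n = 3) for treated and 6.00 ± 0.33 (n = 4) for metastasis. The 8 arrays that stand apart covered only 5.79 to 5.86, whatever their group.

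**Figure D1:**
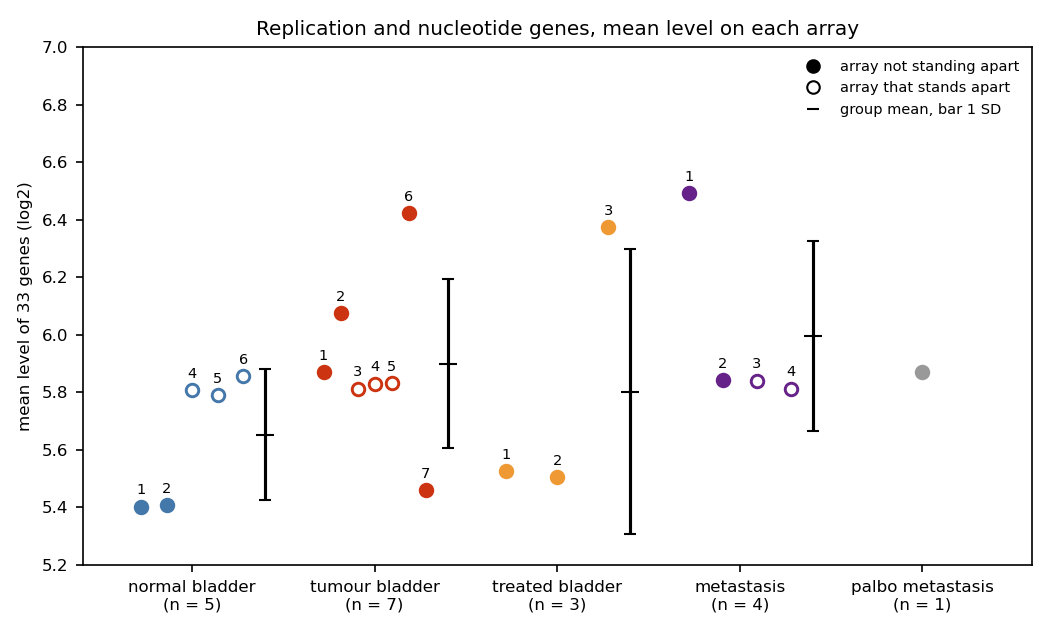
Mean level (log2) of the 33 replication and nucleotide genes on each of 20 arrays by group, with array numbers; open circles are the 8 arrays that stand apart, and bars show the group mean and 1 SD. Tumour bladder 6, treated bladder 3 and metastasis 1 lie above 6.3, and the open circles lie between 5.79 and 5.86.

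The genes differed more between the 12 arrays than most genes did. The median SD of the members was 0.414 over the 12 arrays and 0.172 over the 8, and it was larger over the 12 for 30 of 33 genes (90.9%). For all genes these medians were 0.265 and 0.252, with 50.2% larger over the 12. Pcna spread most (SD 1.16), followed by Mcm6 (0.87), Tyms (0.76), Prim1 (0.76) and Mcm4 (0.75). Fen1 (0.135), Pold1 (0.15) and Orc1 (0.15) spread least. The median SD was 0.362 for the 12 genes with an E2F-type match in the window and 0.426 for the 15 with a window and no match.

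Among the 12 arrays, metastasis 1 was the highest for 14 of the 33 genes and within the top 3 for 28. Tumour bladder 6 was the highest for 8 genes and within the top 3 for 26, and treated bladder 3 for 3 and 25. The lowest array was normal bladder 1 for 15 genes, normal bladder 2 for 6, and tumour bladder 7 and treated bladder 2 for 5 each. Normal bladders 1 and 2 were close to each other, with a median difference of -0.01 and 13 of 33 genes higher on the first, against 48.9% of all genes.

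**Figure D2:**
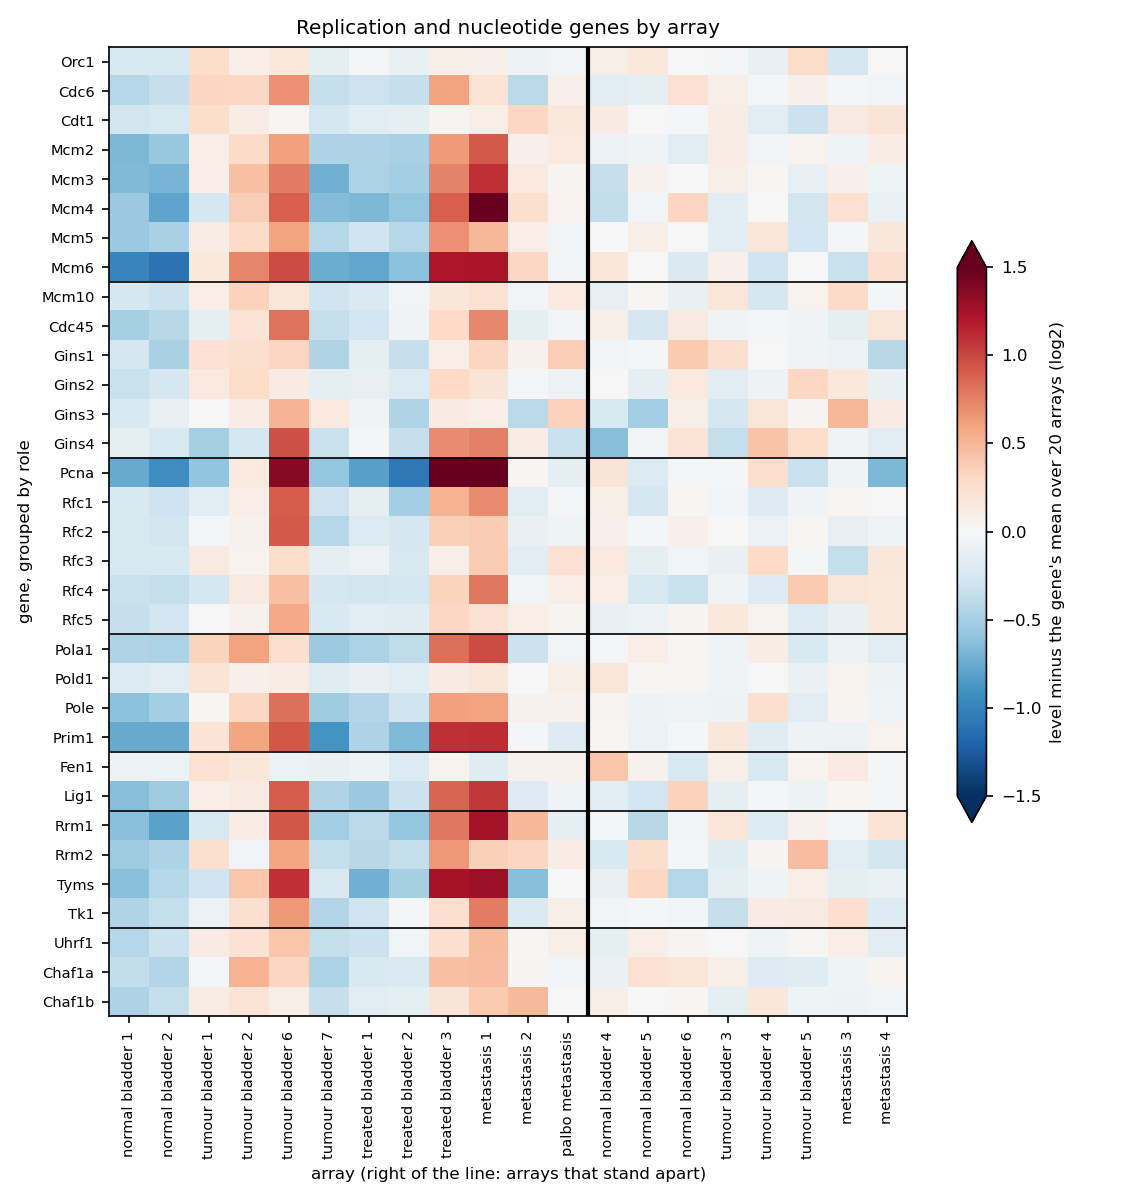
Level of each of 33 genes (rows, grouped by role) minus its mean over 20 arrays (log2, colour) on each array (columns), with the 8 arrays that stand apart to the right of the line. Red cells fill the columns of tumour bladder 6, treated bladder 3 and metastasis 1, and blue cells those of normal bladders 1 and 2, tumour bladder 7 and treated bladders 1 and 2.

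Of the 8 origin licensing genes (Orc1, Cdc6, Cdt1 and Mcm2 to Mcm6), the Mcm genes had tumour bladder 6, treated bladder 3 and metastasis 1 at the high end, and the others did not all do so. Mcm6, a helicase subunit, was at 4.63, 4.52, 5.80, 5.62 and 5.41 on normal bladders 1, 2, 4, 5 and 6. On tumour bladders it ran from 4.87 through 5.70 to 6.60, on treated bladders it was 4.85, 5.01 and 6.84, on metastases 6.85, 5.93, 5.29 and 5.87, and on the palbo metastasis 5.59. Treated bladder 3 and metastasis 1 were the highest of all arrays, normal bladders 1 and 2 the lowest, and each pair of groups overlapped. Mcm4, another subunit, was at 5.69, 5.46, 5.88, 6.22 and 6.58 on normal bladders and ran from 5.60 through 6.08 to 7.15 on tumour bladders. It was at 5.58, 5.67 and 7.15 on treated bladders, at 7.74, 6.50, 6.48 and 6.15 on metastases and at 6.31 on the palbo metastasis. Metastasis 1 stood above every other array, while treated bladders 1 and 2 lay within the normal range.

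Mcm2, whose tail also holds histones, was at 4.84, 4.96, 5.44, 5.46 and 5.35 on normal bladders. It ran from 5.06 through 5.63 to 6.14 on tumour bladders and was at 5.06, 5.04 and 6.17 on treated bladders. On metastases it was at 6.44, 5.59, 5.46 and 5.64, and on the palbo metastasis at 5.67. Metastases 1, 2 and 4 were above the highest normal bladder and metastasis 3 was just under it, and of the treated bladders only number 3 was above it. Cdc6, the loader whose promoter is shown above, was at 5.58, 5.67, 5.84, 5.86 and 6.24 on normal bladders, from 5.65 through 6.09 to 6.69 on tumour bladders, and at 5.70, 5.67 and 6.62 on treated bladders. Metastases stood at 6.21, 5.61, 5.99 and 5.97, so that metastasis 1 was below tumour bladders 1, 2 and 6, and metastasis 2 was near normal bladders 1 and 2. Mcm3 and Mcm5 had the same arrays at the high end, with Mcm3 at 5.37 and 5.34 on normal bladders 1 and 2 and at 7.13 on metastasis 1. Mcm5 was at 5.26 and 5.33 on the same normal bladders and reached 6.49 on treated bladder 3. Orc1 and the licensing factor Cdt1 were dim and covered only 4.85 to 5.36 and 4.60 to 5.23. Orc1 was highest on tumour bladders 1 and 5, and Cdt1 on metastasis 2 and tumour bladder 1.

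Helicase activators (Mcm10, Cdc45 and the 4 GINS genes) spread less. Cdc45, which joins Mcm2-7 and GINS into the active helicase, was at 5.11 and 5.18 on normal bladders 1 and 2, 6.42 on tumour bladder 6, 6.33 on metastasis 1 and 5.90 on treated bladder 3. Gins4, a GINS subunit, was at 6.68, 6.58, 6.17, 6.77 and 7.02 on normal bladders and from 6.32 through 6.55 to 7.78 on tumour bladders. It was at 6.80, 6.47 and 7.53 on treated bladders and at 7.57, 6.92, 6.76 and 6.65 on metastases. For this subunit normal bladder 4 and tumour bladder 1, not normal bladders 1 and 2, were the lowest arrays. Gins3, another GINS subunit, was only slightly higher on treated bladder 3 and metastasis 1 (5.88 and 5.86) than on normal bladders 1 and 2 (5.53 and 5.64). Its highest arrays were tumour bladder 6 at 6.27 and metastasis 3 at 6.26.

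Pcna, the ring that tethers polymerases to DNA, had the widest range of any member. It was at 7.11, 6.94, 8.06, 7.67 and 7.85 on normal bladders and ran from 7.28 through 7.86 to 9.23 on tumour bladders. Treated bladders stood at 7.05, 6.79 and 9.77, metastases at 10.18, 7.90, 7.80 and 7.19, and the palbo metastasis at 7.72. Metastasis 1, treated bladder 3 and tumour bladder 6 lay more than 1 unit above all other arrays, and the rest overlapped regardless of group. The clamp loader genes Rfc1 to Rfc5 spread less. Rfc4 was at 5.49, 5.47, 5.92, 5.58 and 5.49 on normal bladders, from 5.57 through 5.77 to 6.28 on tumour bladders, at 5.55, 5.56 and 6.16 on treated bladders and at 6.62, 5.78, 6.01 and 5.98 on metastases. Of the 4 metastases, 3 lay above the highest normal bladder. Rfc3, whose promoter holds a match close to the start, covered 5.29 to 6.03.

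Polymerase and primase genes split into those that spread and those that did not. Prim1, the catalytic primase subunit, was at 5.09, 5.10, 5.87, 5.76 and 5.83 on normal bladders and from 4.95 through 6.02 to 6.78 on tumour bladders. It was at 5.39, 5.18 and 6.94 on treated bladders, at 6.96, 5.83, 5.78 and 5.90 on metastases and at 5.65 on the palbo metastasis. The same 3 arrays were high, and tumour bladder 7 was the lowest of all. Pola1, its partner in the polymerase that starts each fragment, was at 5.72 and 5.70 on normal bladders 1 and 2, 6.99 on treated bladder 3 and 7.14 on metastasis 1. For Pola1 tumour bladder 2 (6.78) and tumour bladder 1 (6.51) were above tumour bladder 6 (6.42). Pole, the leading strand polymerase, ran from 5.16 (normal bladder 1) to 6.60 (tumour bladder 6), while Pold1, of the lagging strand polymerase, stayed between 4.93 and 5.34. The Pold1 row had a mean of 5.13 over the 20 arrays, close to the dim probe sets. Whether it follows the transcript was not tested.

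The 2 genes of Okazaki fragment processing were unlike each other. Lig1, the ligase that seals the fragments, was at 5.78, 5.89, 6.27, 6.14 and 6.77 on normal bladders and from 5.97 through 6.41 to 7.33 on tumour bladders. It was at 5.86, 6.10 and 7.30 on treated bladders, at 7.48, 6.24, 6.45 and 6.41 on metastases and at 6.36 on the palbo metastasis. Fen1, the flap nuclease that acts just before it, was at 5.23, 5.23, 5.74, 5.37 and 5.08 on normal bladders, from 5.07 through 5.37 to 5.54 on tumour bladders and at 5.24, 5.11 and 5.37 on treated bladders. Metastases stood at 5.13, 5.37, 5.45 and 5.30. On Fen1 the arrays that were high for Lig1 were not set apart, and the highest array of all was normal bladder 4. The Fen1 row had a mean of 5.32 over the 20 arrays, and its SD over the 12 arrays was at percentile 9.3 of all genes. Whether its probe set follows the transcript was not tested.

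Nucleotide supply genes had the widest range of the roles, their mean of 4 genes running from 5.39 on normal bladder 1 to 6.86 on metastasis 1. Rrm1, the large subunit of ribonucleotide reductase, was at 5.43, 5.25, 6.02, 5.63 and 6.00 on normal bladders and from 5.53 through 6.11 to 6.98 on tumour bladders. It was at 5.64, 5.47 and 6.84 on treated bladders, at 7.29, 6.54, 6.02 and 6.25 on metastases and at 5.90 on the palbo metastasis. Metastases 1, 2 and 4 were above the highest normal bladder and metastasis 3 was just under it, and treated bladders 1 and 2 were within the normal range. Tyms, the thymidylate synthase that antifolate drugs and fluorouracil target, was at 6.25, 6.46, 6.78, 7.19 and 6.45 on normal bladders and from 6.58 through 6.82 to 7.98 on tumour bladders. It was at 6.16, 6.39 and 8.13 on treated bladders and at 8.17, 6.25, 6.74 and 6.79 on metastases. Metastasis 2, high for Rrm1, was thus at the low end for Tyms. Rrm2, the small reductase subunit, and Tk1, the thymidine kinase of the salvage path, ran from 4.54 to 5.73 and from 5.34 to 6.55.

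Chromatin copying genes were Chaf1a and Chaf1b, subunits of the factor that lays histones on new DNA, and Uhrf1, which brings the maintenance methyltransferase to it. Chaf1b was at 4.95, 5.05, 5.50, 5.41 and 5.45 on normal bladders, from 5.06 through 5.50 to 5.62 on tumour bladders, at 5.25, 5.28 and 5.61 on treated bladders and at 5.81, 5.90, 5.34 and 5.37 on metastases. Here metastasis 2 was the highest array, and tumour bladder 6, at 5.50, was at the median of its group. Chaf1a ran from 6.00 (tumour bladder 7) to 6.99 (tumour bladder 2), and Uhrf1 from 5.20 (normal bladder 1) to 6.10 (metastasis 1).

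Some arrays of the same group therefore differed across nearly the whole list. Most pairs below set an array with a high mean of these same genes against a lower one. A shared direction in such pairs is thus largely given by the choice of arrays. All 33 genes were higher on tumour bladder 6 than on tumour bladder 7, by a median of 1.03 (from 0.02 for Fen1 to 1.94 for Pcna), where 41.5% of all genes were higher and the median of all genes was -0.07. All 33 were likewise higher on treated bladder 3 than on treated bladder 1, by a median of 0.66 (0.10 for Orc1 to 2.71 for Pcna), and than on treated bladder 2, by 0.67 (0.18 for Cdt1 to 2.97 for Pcna). Of all genes 43.4% were higher than on treated bladder 1 and 41.8% than on treated bladder 2. Between treated bladders 1 and 2, 18 of 33 genes were higher on the first, against 46.5% of all genes, with a median difference of 0.03. Between treated bladder 3 and tumour bladder 6, 15 of 33 genes were higher on the first, against 47.5% of all genes, with a median difference of -0.03 and a range from -0.56 for Rfc2 to 0.58 for Pola1. Metastasis 1 exceeded metastasis 2 for 30 of 33 genes, against 41.7% of all genes, by a median of 0.55 (-0.25 for Fen1 to 2.28 for Pcna). These are differences between single arrays, with no replicate behind them.

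Markers of cell types also moved between these arrays. The mean of 18 genes of G2 and mitosis was 4.99 and 5.04 on normal bladders 1 and 2, 5.16 on tumour bladder 7, 5.22 and 5.32 on treated bladders 1 and 2, and 6.35, 6.43 and 6.56 on treated bladder 3, tumour bladder 6 and metastasis 1. Mki67, a protein of cycling cells, read 4.59 and 4.71 on the same normal bladders but 8.25, 8.67 and 8.96 on tumour bladder 6, treated bladder 3 and metastasis 1. The arrays kept nearly the order they had for the replication genes. Smooth muscle markers (10 genes) had a mean of 8.68 and 8.69 on normal bladders 1 and 2 and 9.74 on tumour bladder 7, but 5.49 on tumour bladder 6 and 5.56 on metastasis 1. Urothelial markers (12 genes) had a mean of 7.60, 7.88 and 9.29 on the first 3 of these arrays and of 5.40 and 5.25 on the last 2.

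Treated bladder 3 was unlike the other high arrays in this respect. Its smooth muscle mean was 8.36, a little below normal bladders 1 and 2, its urothelial mean was 8.11, a little above them, and its macrophage mean (11 genes) was 5.89. Macrophage means were 7.27 on tumour bladder 6 and 8.41 on metastasis 1. Skeletal muscle genes (10 genes) had a mean of 8.93 on treated bladder 1 and between 5.13 and 6.71 on the other 11 of the 12 arrays, and the liver markers (5 genes) a mean of 8.06 on metastasis 2. Xist, which is expressed from the inactive X chromosome of female cells, reached 11.74 and 11.71 on the first normal bladders, 1 and 2, and 10.05 on treated bladder 3. It was between 5.43 and 7.10 on the other 9 of the 12 arrays, so this gene moved with the comparison of tumours and metastases with normal bladders. The Y chromosome gene Eif2s3y did not mirror it. Eif2s3y was at 4.70 and 4.76 on normal bladders 1 and 2, 5.43 on treated bladder 3 and 4.66 on tumour bladder 6, where Xist was at 5.43. These genes thus did not split the arrays alike. The part of tissue makeup and of the animals' sex in the levels of the replication genes was not tested. In bulk RNA, fewer cells of a type and less RNA per cell cannot be told apart.

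**Figure D3:**
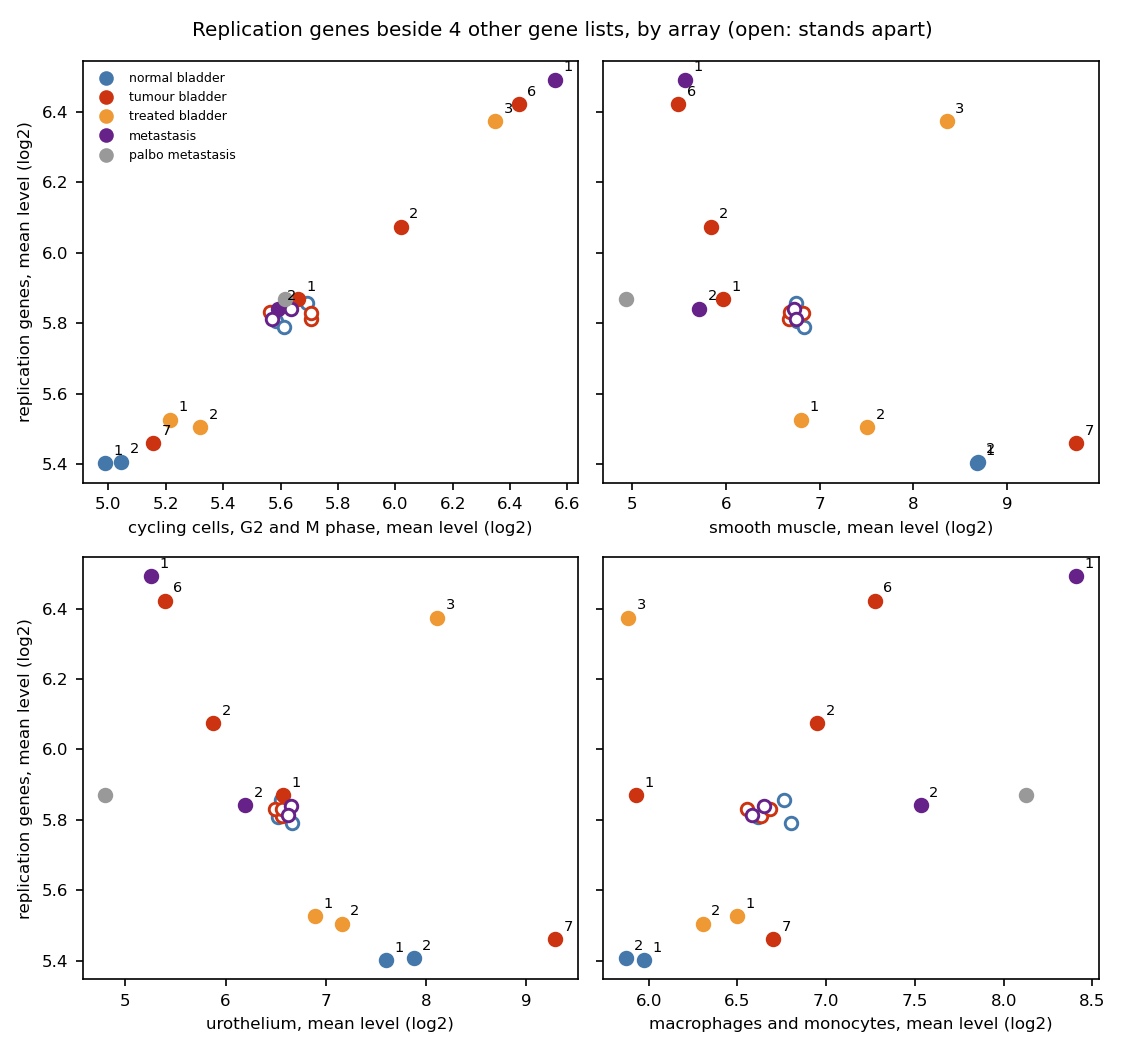
Mean level (log2) of the 33 replication genes on each array (vertical axes) against the means of 4 other gene lists (horizontal axes, log2), coloured by group; open circles are the 8 arrays that stand apart. Treated bladder 3 has a high replication mean (6.37) with smooth muscle and urothelial means of 8.36 and 8.11, where tumour bladder 6 and metastasis 1 have low ones.

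Tumour bladder was compared with normal bladder to see what Cre-started tumours changed. Replication genes were higher in the mean of tumour bladders for 32 of 33 members, against 53.1% of all genes, but none passed the test. The median difference was 0.24, against 0.01 for all genes, from -0.0007 for Fen1 to 0.55 for Mcm6. Nucleotide supply genes had the largest median by role (0.34), then licensing genes (0.30), polymerases (0.28), helicase activators (0.20), clamp and loader (0.20), Okazaki genes (0.16) and chromatin genes (0.15). Over the 12 arrays licensing genes led (0.71), then nucleotide supply (0.69) and polymerases (0.67).

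Mcm6 had a mean of 5.75 ± 0.59 (SD, n = 7) in tumour bladders against 5.20 ± 0.59 (n = 5) in normal, which is 0.55 ± 0.37 (SE) apart. Rrm1 (0.43 ± 0.27), Prim1 (0.43 ± 0.33), Mcm3 (0.42 ± 0.27) and Mcm2 (0.41 ± 0.22) came next. At a threshold of 0.05 after Benjamini-Hochberg adjustment in limma, 0% of all genes passed (0 of 30142), and the smallest adjusted p among members was 0.998. Without adjustment 0 of 33 members had p under 0.05, and 4.25% of all genes did. The 95% interval reached a median of 0.40 to each side of the estimate.

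Over the 12 arrays the median of the members was 0.49, with all 33 higher, against 18500 of all 30142 genes. Of the members 1 had an unadjusted p under 0.05, against 1007 of all genes. The 4 tumour bladders all lay above both normal bladders for 16 of 33 genes, against 7.67% of all genes. Tumour bladder 7 was the array that overlapped: it was above both normal bladders for 16 of 33 genes, near its share of all genes (40.6%). Tumour bladders 1, 2 and 6 were above them for 32 members each, with 54.4%, 50.7% and 34.2% of all genes. Within the 8 arrays that stand apart the median was -0.0098, with 16 of 33 higher, against 13655 of all 30142 genes. Over the 20 arrays it was 0.14 without tumour bladder 6 and 0.30 without tumour bladder 7.

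Treated bladder was compared with tumour bladder to see what palbociclib with CDDP changed. The 33 genes lay slightly lower in the mean of treated bladders for 32 members, and Gins4 alone was higher (0.08 ± 0.30, SE); of all genes 42.6% were higher. The median difference was -0.09, against -0.02 for all genes, and the lowest was Gins3 (-0.23 ± 0.18, SE). No role stood out, with medians between -0.13 (licensing) and -0.04 (chromatin).

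No difference passed the test, and the group mean describes none of its arrays. In limma 0% of all genes passed (0 of 30142), and the smallest adjusted p among members was 0.99995. Without adjustment 0 of 33 members had p under 0.05, against 0.342% of all genes. Treated bladders 1 and 2 were below the tumour mean for all 33 genes, and treated bladder 3 was above it for all 33, where 44.0%, 48.6% and 38.5% of all genes were above it on treated bladders 1, 2 and 3. Without treated bladder 3 the median was -0.33, with 0 of 33 genes higher, against 14564 of all 30142 genes. Without treated bladder 1 it was 0.03, with 21 of 33 higher, against 13088 of all genes. Without treated bladder 2 it was 0.0087, with 18 of 33 higher, against 11861 of all genes. Pcna showed the split most, with a treated mean of 7.87 ± 1.65 (SD, n = 3) against 7.90 ± 0.67 (n = 7) in tumours and a difference of -0.03 ± 0.62 (SE). Without tumour bladder 6 the median was -0.03, with 14 of 33 higher, against 12457 of all 30142 genes. Over the 12 arrays it was -0.15. The 8 arrays that stand apart hold no treated bladder. Centring each array on its median put 7 of 33 members higher rather than 1, and 18734 of all 30142 genes rather than 12827.

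Treated bladder was also set against normal bladder, a comparison that shares arrays with both others. Members were higher in the mean for 29 of 33, against 46.7% of all genes, with a median of 0.16 and a range from -0.09 (Fen1) to 0.37 (Mcm6). Mcm6 had a mean of 5.57 ± 1.10 (SD, n = 3) in treated bladders. In limma 0% of all genes passed (0 of 30142) and 0 of 33 members had an unadjusted p under 0.05, against 0.358% of all genes.

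Over the 12 arrays the median was 0.38 and all 3 treated bladders lay above both normal bladders for 20 of 33 genes, against 6.24% of all genes. Array by array, treated bladder 3 was above both for 33 genes, treated bladder 1 for 28 and treated bladder 2 for 22, where 34.9%, 37.8% and 43.9% of all genes were. Treated bladders 1 and 2 exceeded them by little, as with Mcm2 at 5.06 and 5.04 against 4.84 and 4.96. Without treated bladder 3 the median over 20 arrays was -0.13, with 3 of 33 higher, against 15151 of all 30142 genes. Over the 12 arrays, however, it was 0.13, with 27 of 33 higher.

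Metastasis was compared with tumour bladder to see how spread tumours differ from those in the bladder. Of the 33 genes 23 were higher in the mean of metastases, against 43.9% of all genes, and none passed the test. The median difference was 0.10, against -0.03 for all genes, with Mcm4 highest (0.48 ± 0.35, SE), then Rrm1 (0.43 ± 0.29), and Cdc6 lowest (-0.22 ± 0.20). Licensing genes had the largest median (0.19, and 0.26 over the 12 arrays), although Cdc6 is one of them.

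In limma 0% of all genes passed (0 of 30142), and the smallest adjusted p among members was 0.861, that of Cdt1 (0.22 ± 0.12, SE). No member had an unadjusted p under 0.05, against 5.79% of all genes. Metastasis 1 set the direction: without it the median was -0.06, with 8 of 33 higher, against 13670 of all 30142 genes. Without tumour bladder 7 the median was 0.01 and without tumour bladder 6 it was 0.20. Over the 12 arrays it was 0.16, and -0.07 without metastasis 1, and over the 8 it was 0.02.

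Metastasis differed most from normal bladder. Members were higher in the mean for 31 of 33, against 47.3% of all genes, and the exceptions were Fen1 (-0.02) and Orc1 (-0.02). The median was 0.28, against -0.01 for all genes, and the highest were Rrm1 (0.86 ± 0.31, SE), Mcm6 (0.79 ± 0.43), Mcm4 (0.75 ± 0.37) and Pcna (0.74 ± 0.60). Licensing genes had the largest median by role (0.47, and 0.97 over the 12 arrays).

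None passed the test: in limma 0% of all genes did (0 of 30142), and the smallest adjusted p among members was 0.720, that of Rrm1. Without adjustment 5 of 33 members had p under 0.05, against 6.91% of all genes, all of them higher in metastases: Rrm1, Rfc4, Mcm2, Cdt1 and Chaf1b. Rrm1 had a mean of 6.53 ± 0.55 (SD, n = 4) against 5.67 ± 0.34 (n = 5), and Mcm2 of 5.78 ± 0.44 against 5.21 ± 0.29. Over the 12 arrays, which leave 2 metastases and 2 normal bladders, the median was 0.68. There all 33 genes were higher, against 14348 of all 30142, and 7 had an unadjusted p under 0.05, against 2011 of all genes. Both metastases lay above both normal bladders for 29 of 33 genes, against 22.2% of all genes. Within the 8 arrays the median was 0.02, with 18 of 33 higher, against 13796 of all 30142 genes. Without metastasis 1 the median was 0.15 over 20 arrays and 0.39 over the 12.

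**Figure D4:**
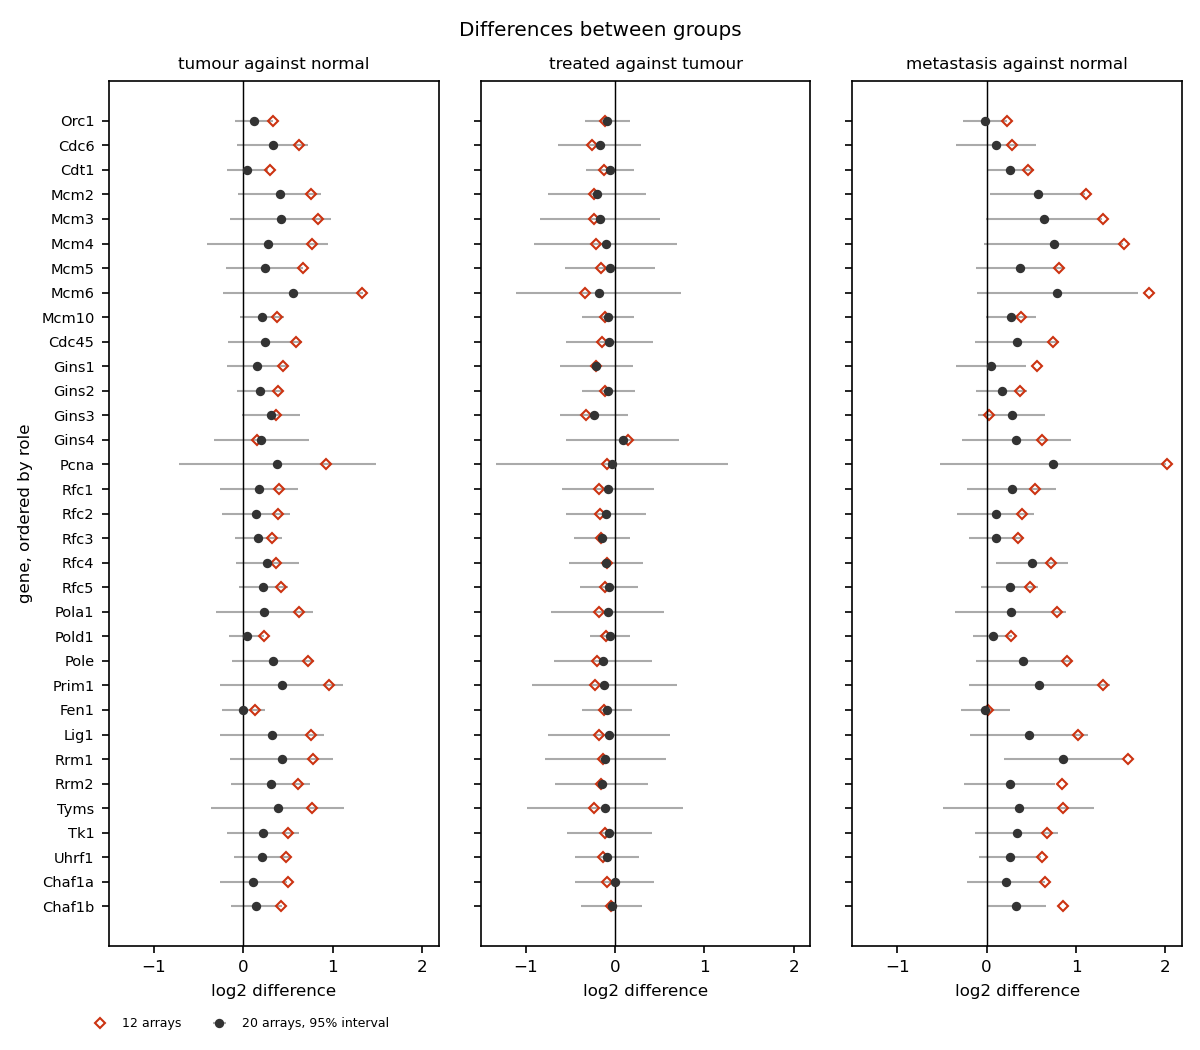
Log2 difference between group means for each of 33 genes in 3 comparisons; filled points with bars are the fit over 20 arrays with its 95% interval, and open diamonds the fit over the 12 arrays that do not stand apart. Filled points of tumour against normal lie between -0.0007 and 0.55 and those of treated against tumour between -0.23 and 0.08, and most bars cross 0.

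The other genes of replication and nucleotide metabolism were read from a separate list of 73 genes, of which 68 were measured: the remaining origin complex, polymerase and histone loading subunits, topoisomerases and enzymes of nucleotide synthesis. Their mean followed the members over a smaller range, from 5.74 on normal bladder 2 to 6.40 on metastasis 1. None of the 68 passed the test in any of the 5 comparisons. In tumour against normal 50 of 68 were higher in the mean, against 53.1% of all genes, with a median of 0.11. The largest difference was that of Top2a, which untangles DNA in dividing cells (0.82 ± 0.51, SE), then those of the histone chaperone Asf1b (0.51 ± 0.39) and of the maintenance methyltransferase Dnmt1 (0.47 ± 0.30). The origin subunit Orc4 was lowest (-0.27 ± 0.15).

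In treated against tumour 22 of 68 were higher, against 42.6% of all genes, with a median of -0.04. Top2a (-0.32), Asf1b (-0.27) and Dnmt1 (-0.22) were the lowest. In metastasis against tumour 45 of 68 were higher, against 43.9% of all genes, with a median of 0.05. Orc2, of the origin complex (0.56 ± 0.21, SE), and Rbbp4, a histone binding subunit of the Chaf1 complex (0.55 ± 0.25), led, and neither passed after adjustment. In treated against normal 56 of 68 were higher, against 46.7% of all genes, with a median of 0.09. In metastasis against normal 54 of 68 were higher, against 47.3% of all genes, with a median of 0.18, and Top2a (0.98 ± 0.58, SE) led again. The comparisons with normal bladder share the normal arrays, and those with tumour bladder the tumour arrays.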

How the data were processed

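Per the submitters' processing notes, the authors made the deposited log2 values with RMA in Affymetrix Expression Console, with no versions given. RMA gives log2 values, and the base is not written with them. Of 65956 rows, 30604 have exactly 1 gene symbol in the platform annotation (2146 have several), 827 symbols were updated, and 30142 genes remained. The values carry no counts, so the number of arrays limits the precision.

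A model with 5 group means over 20 arrays was fitted in limma 3.58.1 (R 4.3.3) to all 30142 genes, with 2-sided tests and Benjamini-Hochberg adjustment over all genes. Tables were made with pandas 2.3.3. The lone palbo metastasis entered the fit but no comparison. Arrays that stand apart have an SD above 0.30 over rows of mean 4.5 to 5.0 and a highest correlation of deviations below 0.25 over rows of mean at least 7. Replicate numbers were not used to pair arrays: of 20 same-numbered pairs, with correlations from -0.506 to 0.330, 1 lay over 0.1. The members, the lists of other genes and markers, and the arrays set apart were chosen with earlier results of these data known. Genes named are the members, and in the separate list the genes with the largest differences; those described array by array stand for each role. Alternatives were other fits, filters and scalings, the replicate block, and each array left out. The fit was also run on simulated data with independent noise in each gene. Those data hold no arrays that stand apart and no genes that move together, so they do not test the fit under these conditions.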

Additional observations from a re-analysis of the deposited data

Results flagged for a closer look

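Levels of the 33 genes, and their mean, were looked at in the 3 groups of 4 to 10 arrays (102 sets of levels), and 8 held an array far from the others of its group by Dixon's test, which chance gives in about 1 in 20 sets. On tumour bladder 6, Pcna was at 9.23 (nearest other tumour bladder 8.12), Rfc1 at 7.41 (nearest 6.61) and Rfc2 at 6.79 (nearest 5.94). On metastasis 1, Prim1 was at 6.96 (nearest other metastasis 5.90), Pole at 6.39 (nearest 5.84), Rfc2 at 6.26 (nearest 5.81) and the mean of the 33 genes at 6.49 (nearest 5.84). On normal bladder 4, Rfc4 was at 5.92 (nearest other normal bladder 5.58). The 3 treated bladders are too few for this test. The sets are not independent, because the genes moved together and their mean is made of them. Each of the 3 groups also holds arrays that stand apart, normal bladder 4 among them. The count of 8 therefore cannot be set against the rate that chance gives.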

How the results depend on the processing

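No member passed in any of the 5 comparisons under any alternative run. Of all genes, 3 passed for metastasis against tumour and 3 for metastasis against normal without the 8 arrays that stand apart, and 1 for metastasis against normal when fitted on those groups alone. The median of the members for metastasis against normal was 0.68 without the 8 arrays. With the replicate block the medians were 0.31 (tumour against normal), -0.08 (treated against tumour), 0.09 (metastasis against tumour), 0.22 (treated against normal) and 0.38 (metastasis against normal), and 0 genes passed. Array weights gave, in the same order, 0.28, -0.23, 0.06, 0.06 and 0.32, with 0 genes passing. Members at an unadjusted p under 0.05 numbered 11, 2, 1, 0 and 14 of 33, against 3064, 2511, 1968, 3012 and 3907 of all 30142 genes. With each array left out in turn the medians over 20 arrays ran from 0.14 to 0.30, -0.33 to 0.03, -0.06 to 0.20, -0.13 to 0.29 and 0.15 to 0.38, with 0 genes passing. Over the 12 arrays they ran from 0.38 to 0.67, -0.36 to -0.0040, -0.07 to 0.38, 0.13 to 0.51 and 0.39 to 0.94. There 0 to 46, 0, 3 to 28, 0 to 1 and 0 to 16 genes passed, the most without tumour bladder 7 (46), metastasis 2 (28 and 16) and treated bladder 3 (1). The cause of these changes was not tested.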
